A study of Homo sapiens with 6 samples.

Results

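Of the 60694 rows of the deposited expression table, 44 carried the name of a member of the human nuclear receptor superfamily other than HNF4A and HNF4G, and each of the 44 genes stood on 1 row. The rule matched names from a list of receptor symbols and used no expression value. The libraries came from SW480, an established cell line from a human colorectal cancer, grown in serum-containing medium. The control group was titled lenti with the genotype control (3 libraries), and the other group was titled lenti-HNF4a with the genotype overexpressing HNF4a (3 libraries). The labels give neither the promoter of the vector nor whether each line was 1 clone or a pool, and they call the 3 libraries of a group biological replicates without saying how the cultures were separated. The p-values therefore measure the spread between these libraries. The comparison addressed here is whether added HNF4A, itself a nuclear receptor, went with other levels of the remaining receptors.

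Nuclear receptors are transcription factors that bind short DNA repeats related to the hexamer AGGTCA, mostly as dimers, and many are switched by a lipid-soluble ligand such as retinoic acid, vitamin D, thyroid hormone, a steroid, a fatty acid or a bile acid. A large group of them works as a heterodimer with a retinoid X receptor (RXR). HNF4A binds as a homodimer to direct repeats of the hexamer with a spacing that receptors such as the PPAR-RXR dimers and the COUP-TF receptors also use. In the intestine, receptors of this family control bile acid, drug, vitamin D and fatty acid handling.

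Expression was deposited as FPKM, the number of fragments scaled by transcript length and library total, so levels can be set side by side between genes, but the depth behind each value is unknown. The FPKM values of a library summed to between 615594 and 652879. Among 341 low genes, the most frequent ratio between libraries gave estimated relative depths of 0.871 to 1.25 against control replicate 1. HNF4A was at 6.57 to 8.81 FPKM in the control libraries and at 720.6 to 1143 FPKM in the overexpression libraries, so each library matched its label (exact two-sided permutation test of 3 against 3 libraries, p = 0.1, the smallest that the 20 assignments allow). The labelled epithelial origin was checked against 11 markers of colorectal epithelium, whose summed level was 4585 to 5211 FPKM in the controls and 4129 to 4605 FPKM in overexpression, most of it KRT8 and KRT18, while KRT20, CDX1, CDH17 and CEACAM5 were at or near 0. Of the 6 epithelial markers tested, 2 rose and 0 fell by limma, the adhesion gene CDH1 from 12.02 ± 0.939 to 17.7 ± 0.554 FPKM (adjusted p = 0.00522) and the microvillus gene VIL1 from 12.1 ± 2.46 to 32.3 ± 4.36 FPKM (SD, n = 3, adjusted p = 0.00182). Over all tested genes 3.4 percent rose and 1.39 percent fell. KRT18 did not pass but was lower without overlap, at 2428 ± 156 and 2050 ± 130 FPKM (SD, n = 3, limma adjusted p = 0.0956). The unadjusted p was under 0.05 for 4 of the 6, 3 higher and 1 lower, beside 18 percent of all tested genes. The 7 fibroblast markers summed to 2.20 to 2.93 and 3.48 to 3.70 FPKM, the 7 leukocyte markers to 1.67 to 2.26 and 4.66 to 5.58 FPKM, the 5 endothelial markers to at most 0.574 FPKM and the 7 hepatocyte markers to at most 0.565 FPKM in any library. Of the leukocyte list, CD68 averaged 0.582 and 2.74 FPKM in control and overexpression, LYZ 0.446 and 0.833, CD14 0.707 and 1.117, ITGAM 0.0455 and 0.141, and PTPRC, the defining leukocyte gene, 0.0170 and 0.0287 FPKM. The part of these markers in the results was not tested.

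SW480 cells held a broad but incomplete set of receptor transcripts. Of the 44 genes, 24 reached 1 FPKM in at least 3 of the 6 libraries, which was the condition for testing, and 15 were at 10 FPKM or more in all 6. Another 7 genes were under that filter but above 0.1 FPKM in at least 1 library, and 13 were below 0.1 FPKM in every library, of which PGR and NR0B1 were listed at 0 throughout. The most abundant receptor was NR1H2, the oxysterol receptor LXR-beta, at 39.4, 38.5 and 37.0 FPKM in the controls and 37.5, 35.6 and 36.1 FPKM in overexpression. Next in the control libraries came NR2F2, ESRRA, PPARD and VDR, with means of 33.8 ± 4.44, 29.5 ± 3.70, 26.9 ± 1.57 and 26.7 ± 0.180 FPKM (SD, n = 3). The order was loose, because in 16 of the 23 neighbouring pairs of tested receptors the control ranges overlapped. A clear step lay between VDR and RARA, and the other steps lay at the lower end, from RXRB and NR1H3 downwards.

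**Figure D1:**
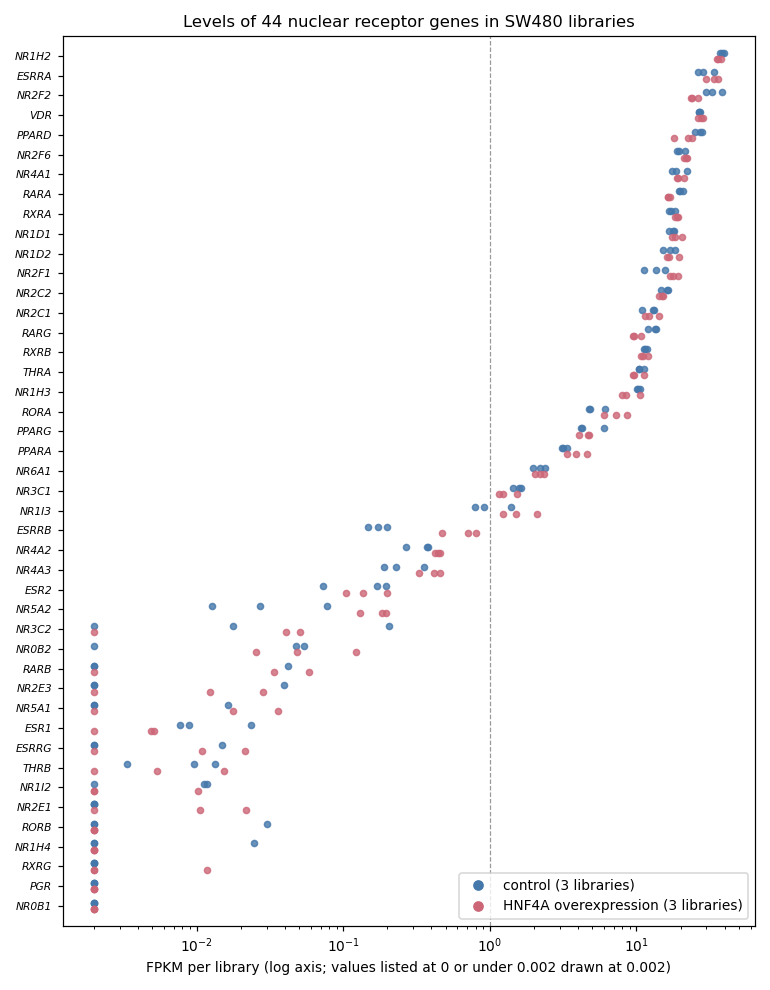
Level of each of the 44 receptor genes in every library, in FPKM on a log axis, ordered by the mean of all libraries. Blue points are the 3 control and red points the 3 HNF4A overexpression libraries, the dashed line marks 1 FPKM, and values listed at 0 or under 0.002 are drawn at 0.002. The points of most receptors above 1 FPKM lie close together in both groups.

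Summed over the 44 genes, receptor expression was 386, 377 and 357 FPKM in the controls and 372, 366 and 357 FPKM in overexpression, with means of 373 ± 14.6 and 365 ± 7.33 FPKM (SD, n = 3). The groups overlapped. HNF4A stood at 0.0204 ± 0.00273 of this sum in control and at 2.48 ± 0.559 times this sum in overexpression. In each overexpression library the HNF4A value, which holds native and introduced RNA, exceeded the other 44 together, by factors of 1.97 to 3.08.

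Differences in the receptor genes were small. Of the 24 tested, 3 fell and 0 rose, and 21 did not pass, by limma on log2(FPKM + 1) with Benjamini-Hochberg adjustment over all 14106 genes tested and a threshold of 0.05. Over all tested genes the share that passed was 4.79 percent, with 3.4 percent higher and 1.39 percent lower, against 12.5 percent of the 24 receptors, all lower. At an unadjusted p under 0.05 there were 6 receptors, 2 higher and 4 lower, of 24, beside 2545 of 14106 genes, or 18 percent. The groups did not overlap in 5 of the 24, which is 20.8 percent beside 23.8 percent of all tested genes, 13.8 percent above and 10.1 percent below. NR2F1 was the 1 above, and NR2F2, PPARD, RARA and RARG were below. The median log2 change was 0.015 for the 24 receptors and 0.010 for all tested genes, and no tested receptor differed by more than 0.43 on the log2(FPKM + 1) scale, while with a pseudocount of 0.1 NR1I3 reached 0.60. The 3 calls lie near the threshold. In the 6 fits that each left out 1 library, 0 or 1 receptors passed as lower and 0 or 1 as higher, while 83 to 155 of all genes passed as lower and 235 to 298 as higher.

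**Figure D2:**
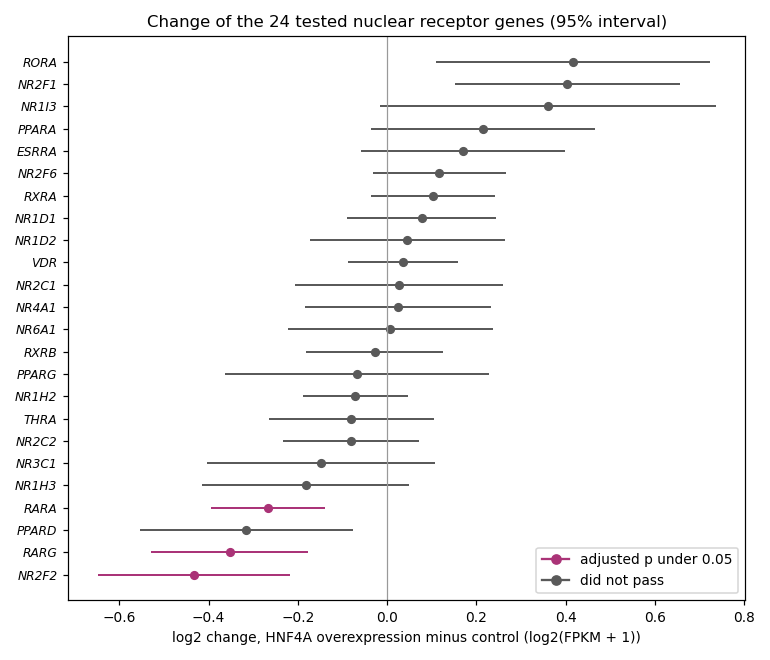
Log2 change of each of the 24 tested receptor genes, HNF4A overexpression minus control, on the log2(FPKM + 1) scale, with its 95 percent interval from limma. Purple marks the 3 genes with an adjusted p under 0.05, RARA, RARG and NR2F2, all lower, and grey marks the 21 that did not pass.

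The retinoic acid receptors RARA and RARG both fell. They bind all-trans retinoic acid and act as heterodimers with RXR. RARA was at 20.8, 19.7 and 19.9 FPKM in control and at 16.4, 16.4 and 16.9 FPKM in overexpression. All overexpression libraries lay below all controls. The mean went from 20.1 ± 0.623 to 16.6 ± 0.322 FPKM (SD, n = 3), a ratio of 0.822 and a log2 change of -0.27 ± 0.055 (SE, limma adjusted p = 0.0323). RARG was at 13.4, 13.6 and 11.98 FPKM in control and at 9.55, 10.7 and 9.62 FPKM in overexpression, again without overlap. Its mean went from 13.0 ± 0.878 to 9.95 ± 0.637 FPKM (SD, n = 3), a ratio of 0.766 and a log2 change of -0.35 ± 0.076 (SE, limma adjusted p = 0.0386). Added together, RARA and RARG held 31.9 to 34.2 FPKM in the controls and 25.9 to 27.1 FPKM in overexpression. Neither call held when any 1 library was left out, with limma adjusted p between 0.0718 and 0.105 for RARA and between 0.0514 and 0.127 for RARG. In bulk RNA, fewer cells with a transcript and less of it per cell cannot be told apart. RARB, the retinoic acid receptor whose own gene is a classical retinoic acid target, was at or near 0, with at most 0.0588 FPKM in any library.

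RARA lies on chromosome 17 from 40309192 to 40357643 (plus strand) and RARG on chromosome 12 from 53210567 to 53232980 (minus strand) in GENCODE 29 on GRCh38. RARA shares 556 exonic bases with the antisense gene RARA-AS1, which was at 1.58 to 1.98 FPKM in the controls and 1.81 to 2.10 FPKM in overexpression. Strand use in the counting is not given in the sources used here, so fragments of overlapping genes on opposite strands cannot be told apart. The bases before the transcription start of both genes are shown because both genes fell, with RefSeq starts on GRCh38.p14. Of the 3 RARA starts in the table the most upstream one is used, and of RARG the 203 bases that lie outside annotated exons of the gene. Capitals mark the hexamer AGGTCA. No other letters searched were found in these windows.
RARA, chr17:40308930-40309179, plus strand: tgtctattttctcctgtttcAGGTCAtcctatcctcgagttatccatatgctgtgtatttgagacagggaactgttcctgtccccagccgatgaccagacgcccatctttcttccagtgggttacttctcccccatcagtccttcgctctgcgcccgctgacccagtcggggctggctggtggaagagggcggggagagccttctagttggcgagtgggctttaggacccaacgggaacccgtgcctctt
RARG, chr12:53232257-53232459, minus strand: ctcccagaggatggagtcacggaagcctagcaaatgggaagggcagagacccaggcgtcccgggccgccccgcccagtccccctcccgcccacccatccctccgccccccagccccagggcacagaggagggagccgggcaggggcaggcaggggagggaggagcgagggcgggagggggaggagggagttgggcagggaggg

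Both stretches are rich in G and C, at 56.4 percent for RARA and 74.4 percent for RARG. The hexamer begins at position -230 of RARA, counted from the start of transcription. On either strand it occurs in 13.8 percent of the 35116 RefSeq windows of the same kind, which reach from 250 bases before to 50 after a start, and in 16 of the 94 windows of the 40 receptor genes in the table, or 17 percent. Counted by gene, 11 of these 40 and 16.5 percent of all 27305 genes hold it in some window. Its direct repeat on the same strand with 1 base of any kind between the copies occurs in 0.0228 percent of these windows and in 0 of the receptor windows. The longer HNF4 letters CAAAGTCCA occur in 0.384 percent of windows and in 0 of the receptor windows. Their first 8 letters, CAAAGTCC, occur in 1.2 percent of windows and in 2 of the 94 receptor windows, 1 of RARB and 1 of NR5A2. These searches describe letters in a short window and say nothing about binding.

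The RXR genes, whose products pair with the retinoid, vitamin D, thyroid hormone, PPAR, LXR, FXR, PXR and CAR proteins, stayed within a narrow range. RXRA was at 17.3, 18.5 and 16.7 FPKM in control and at 19.0, 19.2 and 18.4 FPKM in overexpression, with overlapping groups, and its log2 change was 0.10 with a 95 percent interval of -0.03 to 0.24 (limma adjusted p = 0.423). RXRB was at 11.8, 11.3 and 11.3 FPKM and at 10.7, 11.95 and 11.2 FPKM, with an interval of -0.18 to 0.12 (limma adjusted p = 0.877). RXRG was listed at 0 in 5 libraries. RXRB shares 244 exonic bases with SLC39A7 on the other strand, a zinc transporter gene at 40.5 to 43.6 FPKM.

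Genes linked to retinoic acid did not pass in the main fit. Of 10 listed target genes of the retinoic acid receptors, 6 were tested and 0 rose or fell, with a median log2 change of -0.25 beside 0.010 for all tested genes. The most abundant was TGM2, the tissue transglutaminase gene, at 756, 934 and 816 FPKM in the controls and 593, 761 and 729.8 FPKM in overexpression (limma adjusted p = 0.231). At an unadjusted p under 0.05 there were 2545 of all 14106 tested genes, 1028 of them lower. Of the 6 targets there were 3, all lower, TGM2 among them. Another of these, named after its values were seen, was CRABP2, a retinoic acid carrier gene, at 188 ± 11.4 and 155 ± 11.5 FPKM (SD, n = 3, limma adjusted p = 0.0557). Of 11 genes of retinoid supply and binding, 5 were tested and 0 passed, with 0 at an unadjusted p under 0.05.

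**Figure D3:**
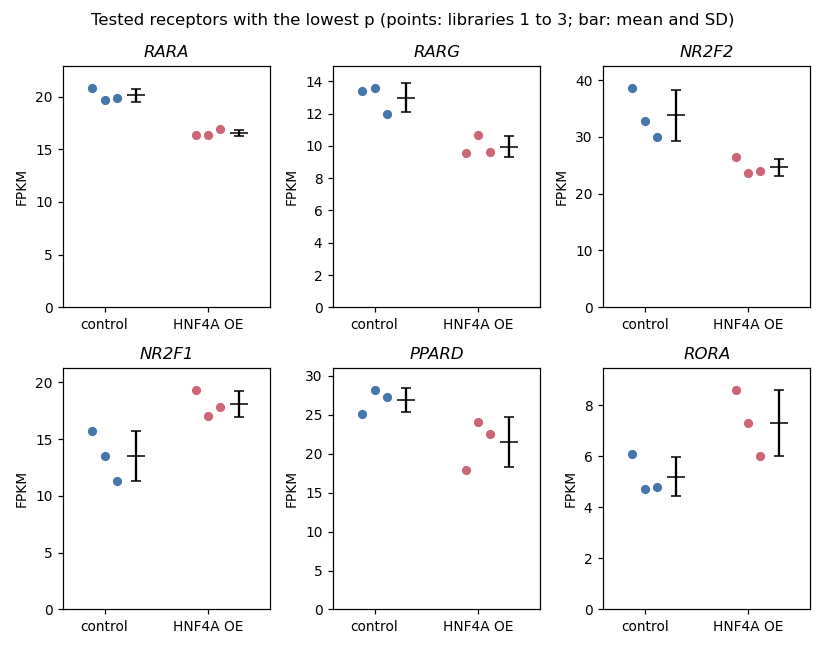
FPKM of the 6 tested receptor genes with the lowest p, per library (points, replicates 1 to 3 from left to right), with the mean and SD of each group as a bar. The groups are separate for RARA, RARG, NR2F2, NR2F1 and PPARD and overlap for RORA.

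The COUP-TF receptors NR2F1 and NR2F2, closely related orphan receptors that mostly act as repressors and have roles in development, stood in different proportions in the groups. NR2F2 was at 38.6, 32.8 and 29.9 FPKM in control and fell to 26.4, 23.7 and 23.9 FPKM in overexpression, with no overlap. Its mean went from 33.8 ± 4.44 to 24.7 ± 1.52 FPKM (SD, n = 3), a ratio of 0.73 and a log2 change of -0.43 ± 0.093 (SE, limma adjusted p = 0.0384). The call held in 1 of the 6 fits without a library, that without control replicate 3 (limma adjusted p = 0.0281), and was lost in the others (0.0638 to 0.121). NR2F1 was at 15.7, 13.5 and 11.3 FPKM in control and at 19.3, 17.1 and 17.8 FPKM in overexpression, also with no overlap. Its log2 change, 0.40 ± 0.11 (SE), did not pass (limma adjusted p = 0.0821), although without control replicate 1 the adjusted p was 0.0351. In both genes control replicate 1 was the highest of the controls.

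The ratio of the 2 genes varied little within groups. NR2F1 over NR2F2 was 0.406, 0.412 and 0.378 in control and 0.731, 0.721 and 0.746 in overexpression. The 2 sets of values are far apart relative to their spread of 0.0183 and 0.0127 (SD, n = 3), and the ratio of their means is 1.84. The ratio was formed after the values were seen, so no test is given. The sum of both genes was 41.2 to 54.3 FPKM in the controls and 40.7 to 45.7 FPKM in overexpression, with overlapping groups. NR2F1 lies on chromosome 5 from 93583224 to 93594615 and NR2F2 on chromosome 15 from 96325938 to 96340263, both on the plus strand. NR2F1 shares 158 exonic bases with the antisense gene NR2F1-AS1, which was at 2.34 to 2.86 FPKM in the controls and 2.33 to 3.17 FPKM in overexpression. The 250 bases before the more upstream of its RefSeq starts are shown because the groups of NR2F1 did not overlap, and none of the searched letters occurs in them. Only exact letters were searched, so close variants, such as caaagttca in this stretch beside CAAAGTCCA, were not counted.
NR2F1, chr5:93582972-93583221, plus strand: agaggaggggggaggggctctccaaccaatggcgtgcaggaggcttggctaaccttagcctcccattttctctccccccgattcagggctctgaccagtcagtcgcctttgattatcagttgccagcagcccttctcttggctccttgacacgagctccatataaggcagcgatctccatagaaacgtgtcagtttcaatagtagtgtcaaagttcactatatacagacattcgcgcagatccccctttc

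The other receptors of this subfamily did not pass. NR2F6, another COUP-TF relative, was at 19.97 ± 1.39 and 21.7 ± 0.630 FPKM (SD, n = 3, limma adjusted p = 0.3995). The testicular receptors NR2C1 and NR2C2, which bind direct repeats as orphan receptors, were at 12.4 ± 1.27 and 12.6 ± 1.47 FPKM (limma adjusted p = 0.932) and at 15.8 ± 0.957 and 14.9 ± 0.469 FPKM (limma adjusted p = 0.596). NR2C2 shares 1197 exonic bases with MRPS25 on the other strand, which was at 25.2 to 29.9 FPKM. NR2E1 and NR2E3, receptors of the brain and retina, stayed below 0.1 FPKM in every library.

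The fatty acid receptors were all expressed. PPARD, the widely expressed member and a gene long discussed as a Wnt target in colorectal cancer, was at 25.1, 28.2 and 27.3 FPKM in control and at 17.96, 24.02 and 22.6 FPKM in overexpression. The groups did not overlap, and overexpression replicate 1 was the lowest. The log2 change of -0.32 ± 0.10 (SE) did not pass (limma adjusted p = 0.142), and without overexpression replicate 1 it was -0.20. PPARG, the adipocyte and colonocyte receptor, was at 5.98, 4.20 and 4.27 FPKM and at 4.78, 4.66 and 4.08 FPKM, with an interval of -0.36 to 0.23 (limma adjusted p = 0.846). PPARA, the receptor of fatty acid oxidation in liver, was at 3.12, 3.18 and 3.38 FPKM in the controls and 4.60, 3.36 and 3.84 FPKM in overexpression, with overlapping groups (limma adjusted p = 0.354). Of 13 PPAR target genes 7 were tested, 1 rose, 0 fell and the other 6 did not pass, with a median log2 change of 0.10. It was ACAA1, a peroxisomal thiolase gene, at 29.8 to 31.1 FPKM in the controls and 48.2 to 55.1 FPKM in overexpression (limma adjusted p = 9.56e-04), with the same call in each fit without 1 library. The unadjusted p was under 0.05 for 2 of the 7 PPAR targets, 1 higher and 1 lower, beside 18 percent of all tested genes.

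Among the receptors linked to the circadian clock, NR1D1 and NR1D2 (REV-ERB-alpha and -beta) repress and RORA activates genes through a shared element. NR1D1 was at 17.6 ± 0.722 and 18.6 ± 1.54 FPKM (SD, n = 3, limma adjusted p = 0.651) and NR1D2 at 16.9 ± 1.603 and 17.4 ± 1.92 FPKM (limma adjusted p = 0.862). RORA was at 6.08, 4.72 and 4.80 FPKM in control and at 8.59, 7.29 and 6.01 FPKM in overexpression. The groups overlapped by a narrow margin, between control replicate 1 and overexpression replicate 3. Its log2 change, 0.42 ± 0.13 (SE), did not pass (limma adjusted p = 0.135). RORB was listed at 0 in 5 libraries. Of 15 clock genes 13 were tested and 0 passed, with a median log2 change of -0.08. At an unadjusted p under 0.05 there was 1 of the 13, beside 18 percent of all tested genes. The most abundant clock gene, the repressor gene BHLHE40, was at 29.1 ± 5.88 and 24.2 ± 5.29 FPKM (SD, n = 3, limma adjusted p = 0.534).

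THRA, the thyroid hormone receptor alpha gene, and NR1D1 lie tail to tail on chromosome 17 and share 263 exonic bases on opposite strands. THRA was at 11.3, 10.5 and 10.4 FPKM in the controls and 9.52, 9.61 and 11.2 FPKM in overexpression, with overlapping groups (log2 change -0.08, limma adjusted p = 0.680). THRB, the beta receptor gene, reached at most 0.0154 FPKM. Of 6 thyroid hormone target genes 4 were tested, of which 1 rose and 1 fell, with a median log2 change of -0.25. Over all tested genes 3.4 percent rose and 1.39 percent fell. The unadjusted p was under 0.05 for 3 of the 4, 1 higher and 2 lower, beside 18 percent of all tested genes. HR, which encodes a corepressor of the thyroid hormone and vitamin D receptors, fell from 14.9, 18.6 and 17.2 FPKM to 10.0, 12.3 and 11.99 FPKM (limma adjusted p = 0.0249, and 0.0222 to 0.0794 without 1 library, passing in 2 of 6 fits). BCL3, an NF-kB cofactor gene, rose from 3.88 ± 0.288 to 5.96 ± 0.397 FPKM (SD, n = 3, limma adjusted p = 0.0148, passing in 3 of 6 such fits with values up to 0.0612).

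VDR, the vitamin D receptor of gut epithelium, was among the steadiest members, at 26.9, 26.6 and 26.7 FPKM in the controls and 27.4, 28.6 and 26.3 FPKM in overexpression. The 95 percent interval of its log2 change was -0.08 to 0.16 (limma adjusted p = 0.801). Of 8 vitamin D target genes 4 were tested, with a median log2 change of 0.23. Of these 0 passed and 2 were at an unadjusted p under 0.05, beside 18 percent of all tested genes. The most abundant was CYP24A1, the vitamin D catabolic enzyme gene, at 10.7, 13.95 and 15.1 FPKM in the controls and 14.4, 17.5 and 18.0 FPKM in overexpression (limma adjusted p = 0.248).

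The receptors of bile acids and drugs were largely silent. NR1H4, the bile acid receptor FXR, was listed at 0 in 5 libraries and at 0.0245 FPKM in the other. NR1I2, the xenobiotic receptor PXR, reached at most 0.0118 FPKM. NR1I3, the xenobiotic receptor CAR, was at 1.39, 0.787 and 0.911 FPKM in the controls and 2.09, 1.23 and 1.503 FPKM in overexpression, with overlapping groups (log2 change 0.36 with an interval of -0.01 to 0.73, 0.23 without overexpression replicate 1, limma adjusted p = 0.295). Of the controls only replicate 1 reached 1 FPKM, so NR1I3 met the filter through its overexpression libraries, which limits this interval and p as a test. NR1I3 shares 661 exonic bases with TOMM40L on the other strand, a mitochondrial import gene that was at 4.45 to 4.998 FPKM in the controls and 5.87 to 6.47 FPKM in overexpression, and its part in the NR1I3 values was not tested.

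Of 9 listed PXR and CAR target genes 3 were tested and 1 rose, with a median log2 change of 0.46. It was ABCB1, the drug efflux pump gene, at 1.49 to 2.32 FPKM in the controls and 7.67 to 9.03 FPKM in overexpression (log2 change 1.67, limma adjusted p = 6.12e-04, with the same call in each fit without 1 library). Of 7 FXR target genes 3 were tested and 0 passed, with 2 at an unadjusted p under 0.05, beside 18 percent of all tested genes. The most abundant was FGF19, the bile acid-induced hormone gene of the ileum, at 149, 178 and 154 FPKM in the controls and 110.1, 138 and 126 FPKM in overexpression, without overlap (limma adjusted p = 0.0701). In bile acid synthesis only CYP27A1, a sterol hydroxylase gene, was tested of 4 genes, at 7.84 ± 0.379 and 8.74 ± 0.149 FPKM (SD, n = 3, limma adjusted p = 0.331).

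The oxysterol receptors were well expressed and did not pass. NR1H2 had a log2 change of -0.07 with an interval of -0.19 to 0.04 (limma adjusted p = 0.529). NR1H3, LXR-alpha, was at 10.1, 10.6 and 10.2 FPKM in control and at 8.49, 10.6 and 7.96 FPKM in overexpression, where replicate 2 stood with the controls (limma adjusted p = 0.397). Of 10 LXR target genes, a list that holds NR1H3 itself, 6 were tested and 0 passed, with 0 at an unadjusted p under 0.05 and a median log2 change of -0.12. The most abundant, the phospholipid enzyme gene LPCAT3, was at 36.8 ± 3.69 and 36.7 ± 2.87 FPKM (SD, n = 3, limma adjusted p = 0.991).

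Steroid receptors were low or at 0. The glucocorticoid receptor gene NR3C1 alone of the 5 was tested, at 1.43, 1.63 and 1.58 FPKM in the controls and 1.22, 1.53 and 1.15 FPKM in overexpression, with overlapping groups (limma adjusted p = 0.557). The mineralocorticoid receptor gene NR3C2 reached at most 0.206 FPKM and was listed at 0 in 2 libraries. The oestrogen receptor genes ESR1 and ESR2 reached at most 0.0236 and 0.199 FPKM, and the progesterone receptor gene PGR was listed at 0 in all 6. Of 10 glucocorticoid and mineralocorticoid target genes 7 were tested, 1 rose and 0 fell, with a median log2 change of -0.0023. It was SGK1, a serum- and steroid-induced kinase gene, at 1.12, 0.534 and 1.15 FPKM in the controls and 2.56, 1.82 and 2.87 FPKM in overexpression (limma adjusted p = 0.0361, and 0.0394 to 0.115 without 1 library, passing in 1 of 6 fits). The unadjusted p was under 0.05 for 3 of the 7 glucocorticoid and mineralocorticoid targets, 1 higher and 2 lower, beside 18 percent of all tested genes. Of 5 oestrogen target genes 4 were tested and 3 did not pass. The other, PDZK1, an apical scaffold gene, met the filter only through the overexpression libraries, so its p is no test and is not given. It was at 0.238, 0.255 and 0.136 FPKM in the controls and 2.42, 2.06 and 1.35 FPKM in overexpression, without overlap. With PDZK1 counted, the unadjusted p was under 0.05 for 3 of the 4 oestrogen targets, 2 higher and 1 lower.

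The oestrogen-related receptors act without a known natural hormone and are linked to mitochondrial genes. ESRRA was at 28.3, 33.6 and 26.5 FPKM in the controls and 34.0, 35.8 and 29.8 FPKM in overexpression, with overlapping groups (log2 change 0.17 with an interval of -0.06 to 0.40, limma adjusted p = 0.429). Of 8 genes of the PGC-1 family or of oestrogen-related receptor targets 7 were tested and 0 passed, with 0 at an unadjusted p under 0.05 and a median log2 change of 0.0011. The most abundant, the ATP synthase gene ATP5F1B, was at 544 ± 9.60 and 527 ± 26.0 FPKM (SD, n = 3, limma adjusted p = 0.703). ESRRB, a receptor gene of pluripotent and inner ear cells, was low but separate between groups, at 0.200, 0.148 and 0.171 FPKM in the controls and 0.470, 0.707 and 0.802 FPKM in overexpression. The ratio of the means, 0.173 ± 0.0257 and 0.660 ± 0.171 FPKM (SD, n = 3), is 3.81. It was too low for the main test. With no filter limma gave an adjusted p of 0.0947, where 0.781 percent of 32006 genes passed, 0.628 percent higher and 0.153 percent lower. ESRRG reached at most 0.0214 FPKM.

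**Figure D4:**
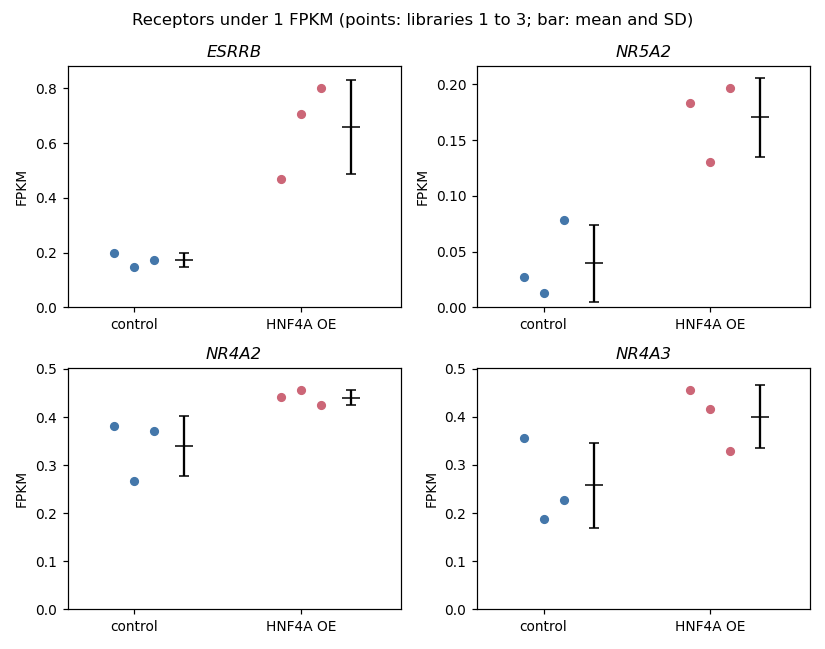
FPKM of 4 receptor genes that stayed under 1 FPKM, per library (points, replicates 1 to 3 from left to right), with the mean and SD of each group as a bar. The groups are separate for ESRRB, NR5A2 and NR4A2 and overlap for NR4A3.

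Of the 20 receptor genes under the main filter, the groups did not overlap in ESRRB, NR4A2 and NR5A2, higher in overexpression, and in ESR1, lower at no more than 0.0236 FPKM. Over the 32006 genes fitted with no filter, the share without overlap was 16.4 percent, 9.95 percent above and 6.41 percent below. These also hold the 14106 genes past the main filter, of which 23.8 percent did not overlap. The share among genes under the filter alone was not computed.

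The NR4A receptors are immediate early genes whose products act without a classical ligand. NR4A1 was at 22.3, 18.5 and 17.6 FPKM in the controls and 21.0, 19.0 and 19.3 FPKM in overexpression, with overlapping groups (log2 change 0.02 with an interval of -0.18 to 0.23, limma adjusted p = 0.932). It shares 754 exonic bases with AC025259.3 on the other strand, which was at 8.35 to 12.5 FPKM in the controls and 9.62 to 13.1 FPKM in overexpression. NR4A2 was at 0.381, 0.267 and 0.371 FPKM in the controls and 0.441, 0.456 and 0.424 FPKM in overexpression, and NR4A3 at 0.357, 0.188 and 0.227 FPKM and 0.456, 0.417 and 0.328 FPKM. Both were under the main filter, and with no filter their limma adjusted p-values were 0.518 and 0.462.

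NR5A2, the gut and liver receptor LRH-1, is a receptor of crypt cells and of bile acid synthesis. It was at 0.0273, 0.0127 and 0.0780 FPKM in the controls and 0.183, 0.131 and 0.197 FPKM in overexpression. The groups did not overlap and the ratio of the means is 4.33, at levels far below the filter (limma adjusted p = 0.138 with no filter). The 250 bases before the more downstream of its RefSeq starts on chromosome 1 are shown because they hold the letters CAAAGTCC, here as their reverse complement in capitals, beginning at position -148. Its other start has the hexamer AGGTCA at position -84, in a window that partly lies in an exon.
NR5A2, chr1:200042341-200042590, plus strand: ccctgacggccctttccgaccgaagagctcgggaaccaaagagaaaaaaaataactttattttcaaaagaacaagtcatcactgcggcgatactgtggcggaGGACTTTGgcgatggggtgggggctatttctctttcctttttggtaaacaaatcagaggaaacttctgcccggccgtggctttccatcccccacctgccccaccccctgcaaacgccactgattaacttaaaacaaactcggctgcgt

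NR5A1, the steroidogenic factor gene, reached at most 0.0359 FPKM. NR6A1, the germ cell nuclear factor gene, was at 2.18, 2.37 and 1.97 FPKM in the controls and 2.35, 2.02 and 2.20 FPKM in overexpression, the smallest log2 change of the 24 (0.0070, limma adjusted p = 0.982). NR0B2, the small heterodimer partner that lacks a DNA-binding domain and is a target of FXR and LRH-1, was listed at 0 in control replicate 1 and reached at most 0.122 FPKM. NR0B1 was listed at 0 in every library.

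**Figure D5:**
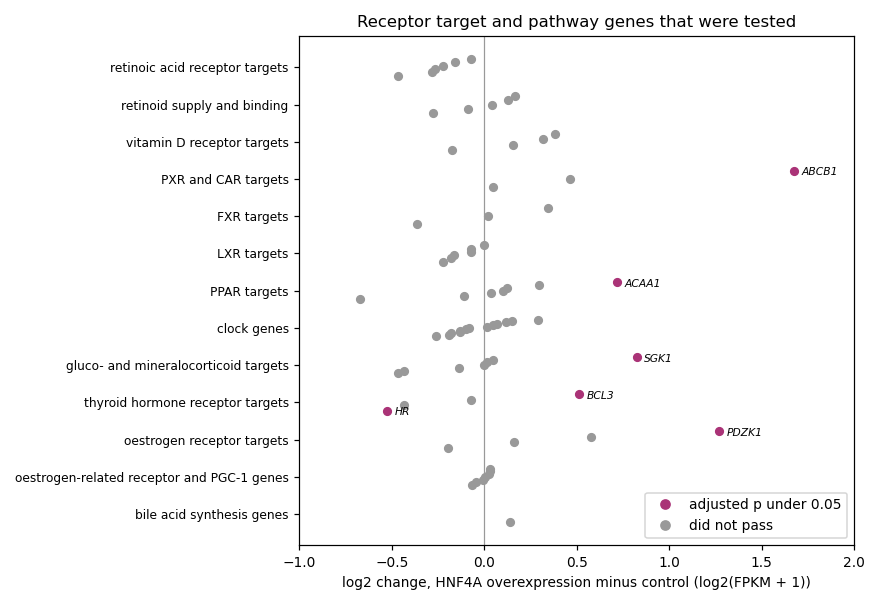
Log2 change, HNF4A overexpression minus control on the log2(FPKM + 1) scale, of the tested genes of 13 lists of receptor target and pathway genes, 1 point per gene. Purple and named are genes with an adjusted p under 0.05, including PDZK1, whose controls were all under the filter, and grey are those that did not pass.

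Over all 13 lists, 68 of 113 distinct genes were tested. Among these 4 rose, 1 fell and 62 did not pass, and PDZK1, whose controls were all under the filter, is not counted. The 4 that rose came from 4 different lists, and in 8 lists 0 genes passed. Among all tested genes 3.4 percent were called higher and 1.39 percent lower. Receptors and their listed targets are set side by side here by name only, and no relation between a receptor's level and its targets was tested.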

How the data were processed

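The authors deposited 1 table of FPKM values, length- and depth-scaled fragment numbers, for 60694 rows named by gene symbol (59332 distinct names), beside their own group means. The submitters' processing notes name the build hg38 and, without version or role, Cufflinks, the aligners TopHat, TopHat2, Bowtie and Bowtie2, and FastQC. The sources used here give neither annotation nor strandedness. Columns were matched to samples by name, and 0 columns of per-sample values were left unused. Of repeated symbols only the most abundant row entered. The authors' fold change and p-value were not used.

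The group difference in log2(FPKM + 1) was fitted with limma 3.58.1 under R 4.3.3 (lmFit, eBayes with trend, no covariate). Genes entered if 3 or more libraries reached 1 FPKM. P-values were adjusted by Benjamini-Hochberg over all 14106 genes tested, with a threshold of 0.05. A change on this scale understates that of genes near or under 1 FPKM. The fit was tested on simulated data with planted changes larger than those of RARA, RARG and NR2F2, so that test does not bear on these calls. Standard deviations are on the FPKM scale over 3 libraries. Depth is unknown, so no counting interval was computed. The alternatives were a pseudocount of 0.1, no filter, a filter of 0.3 FPKM, median-ratio scaling, added rows, a replicate block and leaving out each library.

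The 44 members and 13 target lists were chosen with earlier results of these data known. All members are named. Of each list every passing gene is named or, where none passed, the tested gene with the highest mean. Some genes that this rule or the lists would name are not reported here. BMAL1 was matched as ARNTL through RefSeq synonyms. Positions are from GENCODE 29 (GRCh38) and sequences from RefSeq (GRCh38.p14). The sequence before NR2F2 is not shown because all of it lies in exons of that gene.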

Additional observations from a re-analysis of the deposited data

How the results depend on the processing

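The 24 tested receptors, HNF4A and 6 listed target genes past the threshold (PDZK1 included) gave 369 values under the alternatives, of which 318 kept direction and side of the threshold, 35 lost a call, 4 gained one and 12 changed sign. HNF4A kept its call under each alternative run. Removing the filter left 201 higher and 49 lower genes, 0 receptors passed, and 3 listed target genes passed as higher and 0 as lower. With a filter of 0.3 FPKM 1 receptor, ESRRB, lay past the threshold as higher, but it met that filter only through the overexpression libraries, so this is no test. Median-ratio scaling gave 3 listed target genes as lower. Leaving out 1 library gave 235 to 298 higher and 83 to 155 lower genes, 0 to 1 receptors higher and 0 to 1 lower, and, PDZK1 included where fitted, 3 to 4 listed target genes higher and 0 to 1 lower. The cause of these moves was not tested, beyond fewer libraries or more genes in the fit.

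The sign changes were in receptors that did not pass. Over the fits without 1 library the log2 change ranged from -0.068 to 0.0060 for RXRB, -0.14 to 0.072 for PPARG, -0.039 to 0.11 for NR1D2, -0.058 to 0.091 for NR2C1, -0.041 to 0.12 for NR4A1 and -0.040 to 0.051 for NR6A1, which was also -0.0024 under median-ratio scaling.

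Replicate numbers are shared by the groups, but the labels give them no meaning. Same-numbered libraries deviated from their group means with correlations of 0.139, 0.0914 and 0.15 across genes, and each library correlated best with its own number, a hint from the data and not the design. With the replicate block 638 genes passed as higher and 399 as lower. There 2 receptors passed as higher, NR2F1 (limma adjusted p = 0.0383) and RORA (0.035), and 4 as lower, with PPARD (0.0382) beside RARA, RARG and NR2F2. Of the listed target genes 6 passed as higher and 9 as lower with this block. The 6 hold CYP24A1 (limma adjusted p = 0.0314) and PDZK1. PDZK1 met the filter only through the overexpression libraries, so its p is no test. Among the 9 were the retinoic acid targets CRABP2 (limma adjusted p = 0.00947) and TGM2 (0.0259) and a gene of retinoid supply. FGF19, BHLHE40 and HR were also among the 9. Without read counts the precision at low FPKM is not known, which limits ESRRB, NR5A2 and the other receptors under 1 FPKM most.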
